A study of Homo sapiens with 6 samples.

Results

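The genes described here are 6 of the aryl hydrocarbon receptor pathway: AHR itself, its partner ARNT, its repressor AHRR, and the target genes CYP1A1, CYP1B1 and TIPARP. They were chosen by name, and 5 of the 6 stand among the 7150 genes in the authors' deposited table. RNA was sequenced from MDA-MB-231, a human triple-negative breast cancer cell line labelled as wild type, in 3 control samples with no treatment and 3 samples given 0.5 µM shikonin for 24 h. The labels write the dose unit with a lower-case m, and it is read here as micromolar. Both groups grew in the same serum-containing medium, and the sources used here give no vehicle for the controls. Shikonin is a plant naphthoquinone.

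The table gives 1 comparison between the groups and has 0 columns of values per sample, so the 6 single libraries, their depth and their overlap cannot be shown. Every fold, error and p below is read or computed from the authors' deposited table. Each gene has a mean over all libraries in normalized counts (reads divided by a size factor for each library), a log2 fold change, a standard error and an adjusted p. Every gene in the table, called "listed" below, had an adjusted p below 0.05 in the authors' DESeq2 Wald test and a fold above 1.5. A gene that is not listed missed a threshold or was not tested. The table marks positive values "up", and they are read as higher in shikonin. The adjusted p-values imply 14252 genes tested, of which 50.2% were listed, 25.5% as higher and 24.7% as lower. The labels do not say whether the samples of a group are separate cultures, so each p-value reflects the spread among these samples alone, and that spread may be technical. Of 8 mesenchymal markers of the line 5 were listed, 3 higher and 2 lower, with means of 424 to 64429 normalized counts, the highest for VIM. Of 9 luminal epithelial markers 5 were listed, 4 higher and 1 lower, with means of 35.4 to 15984; the lower one was ERBB2, at a mean of 1632. An unlisted marker has no level here, so the table cannot show that a receptor gene such as ESR1 or PGR is silent.

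The aryl hydrocarbon receptor is a ligand-activated transcription factor of the bHLH-PAS family. Without ligand it waits in the cytoplasm, held by an HSP90 dimer and co-chaperones such as p23. Polycyclic aromatic compounds, dioxins and tryptophan-derived metabolites bind it. The receptor then enters the nucleus, pairs with ARNT and binds short DNA elements with the core GCGTG. CYP1A1 and CYP1B1, whose enzymes oxidise aromatic compounds and estrogens, are its best known targets. AHRR and TIPARP are targets too, and their products restrain the receptor, AHRR by competing for ARNT and DNA and TIPARP by ADP-ribosylating it. CYP1B1 is found at high levels in many tumours.

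The receptor's core element GCGTG was looked for on both strands in the 250 bases before each RefSeq start (build GRCh38.p14), which covered 5 of the 6 genes. CYP1B1 was not matched. Among all 35116 start windows 32.2% held at least 1 match, so a match is common. The CYP1A1 window held 1, the first TIPARP window 2, and the AHRR windows 1 and 2. AHR, ARNT and the other TIPARP windows held 0. The longer form TNGCGTG, found in 4.52% of all windows, was met in the first AHRR window alone among these. The matches of CYP1A1, of the first AHRR window and of TIPARP are shown to give the core letters in context. Each has 12 bases on each side and is written on the gene's own strand from 5′ to 3′. Capitals mark the core, which reads CACGC where the match lies on the opposite strand. The positions are chr15:74725569-74725597 (minus strand), chr5:321672-321700, chr3:156674370-156674398 and chr3:156674436-156674464 (plus strand).
CYP1A1: ccagggaaggagGCGTGgccacacgtaca
AHRR: ggcgggcggctcGCGTGccggggtggggc
TIPARP first: cgcgagaaaggaCACGCcccctcgcggga
TIPARP second: cgaacgaacgcgCACGCgcgcgcaggggg
The full first AHRR window, the one with TNGCGTG, is shown for the context of that element; it covers chr5:321464-321713 and is 79.2% G or C.
AHRR: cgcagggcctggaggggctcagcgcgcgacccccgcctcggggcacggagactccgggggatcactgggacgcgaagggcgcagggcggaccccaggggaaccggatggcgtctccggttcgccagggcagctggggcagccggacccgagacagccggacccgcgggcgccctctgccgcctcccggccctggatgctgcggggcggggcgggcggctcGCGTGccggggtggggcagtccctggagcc
These matches are letters in a short window. The data hold no measure of receptor binding, and elements farther from a start were not searched.

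In shikonin-treated cells the receptor message and its partner's were lower, and the P450 targets moved in opposite directions: CYP1B1 fell and CYP1A1 rose. The row named AHRR was lower as well, and TIPARP was not listed. Of the 6 genes, 4 (66.7%) were listed as lower and 1 (16.7%) as higher, beside 24.7% and 25.5% of all genes tested. The AHRR row carries an identifier that is not in the reference. Without it, 3 of 5 genes were lower and 1 higher. The median log2 fold change of the 5 listed genes was -0.996 (0.60 over all listed genes), and -0.84 without AHRR. Both are medians of genes already past the thresholds. In bulk RNA, fewer cells that express a gene and less of its RNA per cell cannot be told apart.

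**Figure D1:**
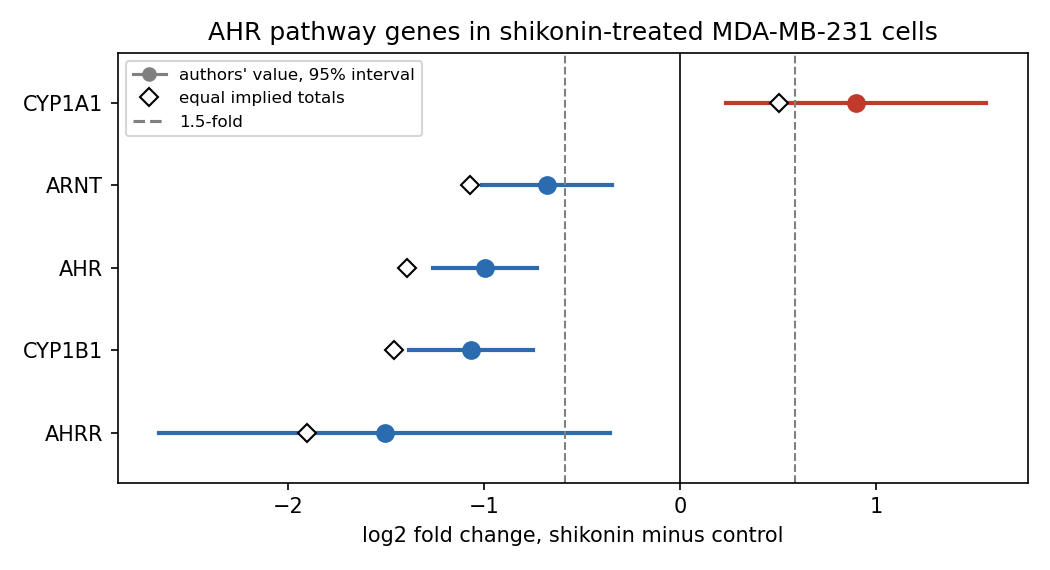
Log2 fold change (shikonin minus control) of the 5 listed genes, as deposited (filled circles, blue lower and red higher, with 95% normal intervals). Open diamonds give the values after setting the implied totals of the groups, over listed genes alone, equal. Dashed lines mark 1.5-fold. CYP1A1 is the one gene to the right of 0, and its diamond lies inside the 1.5-fold line; the intervals of AHR and CYP1B1 lie wholly beyond it.

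AHR (ENSG00000106546) encodes the receptor and is annotated on chromosome 7 from 16916359 to 17346152, plus strand (GRCh38, GENCODE 29). Its mean of 2561 normalized counts in the authors' deposited table was higher than that of 87.1% of the listed genes. The group means implied by this mean and the fold were 3412 in control and 1711 in shikonin. The AHR message was therefore 1.99-fold lower (95% interval 1.66 to 2.40), and the authors' deposited table gives a log2 value of -0.996 ± 0.136 (standard error) with an adjusted p of 1.62e-12. The interval lies wholly beyond 1.5-fold. By size the change was ordinary here, since 59.7% of the 3520 lower genes fell further. Antisense AC073332.1 and the same-strand gene AC019117.2 overlap AHR in the annotation and were not listed. The sources used here do not say whether reads were counted by strand.

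ARNT (ENSG00000143437) encodes the nuclear partner that AHR shares with the hypoxia factors and lies on chromosome 1 from 150809705 to 150876768, minus strand. Its mean was 689 normalized counts, with implied group means of 848 in control and 530 in shikonin. ARNT was 1.60-fold lower (1.27 to 2.01), at a log2 fold change of -0.68 ± 0.17 and an adjusted p of 1.60e-04 in the authors' deposited table. Its fall was among the smaller ones listed, with 90.3% of lower genes changing more, and its interval reaches inside 1.5-fold. The intervals of AHR and ARNT on the log2 scale, -1.26 to -0.73 and -1.01 to -0.35, overlap. Per kilobase of mature transcript, the implied AHR level was 3.13 times that of ARNT in control and 2.51 times in shikonin. The receptor message thus stayed the more abundant of the pair in both groups, though no spread over samples is available for these ratios.

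AHRR encodes the repressor that competes with AHR for ARNT. The row with this name carries the identifier ENSG00000286169, which is in neither GENCODE 29 nor the symbol table used here. The reference gene AHRR is ENSG00000063438 on chromosome 5 from 304176 to 438291, plus strand. That identifier is not listed. The reference gene overlaps PDCD6 on the same strand, so which transcripts the AHRR row counts is not known. The row's mean was 39.5 normalized counts, below that of nearly all listed genes (8.01% were lower), with implied means of 58.4 in control and 20.6 in shikonin. It was 2.84-fold lower (1.28 to 6.30), at a log2 fold change of -1.51 ± 0.59 and an adjusted p of 0.0185 in the authors' deposited table. AHRR had the largest change of the 5 genes and also the widest interval. Its standard error compares with a median of 0.19 over all listed genes.

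CYP1A1 (ENSG00000140465), the inducible P450 that serves as the standard readout of receptor activity, lies on chromosome 15 from 74719542 to 74725610, minus strand. Its mean was 90.1 normalized counts, with implied means of 63.0 in control and 117 in shikonin. CYP1A1 was 1.86-fold higher (1.18 to 2.95), at a log2 fold change of 0.90 ± 0.34 and an adjusted p of 0.0148 in the authors' deposited table. The rise was modest for this experiment, as 72.5% of the 3630 higher genes rose more. It also depended on the scaling. With the implied totals of the groups over the listed genes alone set equal, every log2 value falls by 0.39. CYP1A1 then stood at 0.50, no longer past 1.5-fold. Totals over all tested genes are not held. CYP1A2, the neighbouring gene of the same family, was not listed.

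CYP1B1 (ENSG00000138061), the P450 that hydroxylates estradiol and is common in tumours, lies on chromosome 2 from 38066973 to 38109902, minus strand. Its mean of 2004 normalized counts was close to that of the receptor. The implied group means were 2710 in control and 1297 in shikonin. CYP1B1 was 2.09-fold lower (1.68 to 2.60), at a log2 fold change of -1.06 ± 0.16 and an adjusted p of 2.39e-10 in the authors' deposited table. Its interval lies wholly beyond 1.5-fold and overlaps that of AHR. RMDN2 and the antisense gene CYP1B1-AS1, both on the opposite strand, overlap CYP1B1 and were not listed. RMDN2-AS1 overlaps it on the same strand and was not listed either.

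The P450 pair therefore differed in level and in direction. The log2 interval was 0.23 to 1.56 for CYP1A1 and -1.38 to -0.75 for CYP1B1. Intervals of listed genes of opposite direction cannot overlap, since each passed the adjusted p threshold. Their separation therefore adds nothing to the directions. The difference itself was not tested, since values per sample are not held. Per kilobase of mature transcript, the implied CYP1B1 level was 22.0 times that of CYP1A1 in control and 5.65 times in shikonin. CYP1B1 thus stayed the more abundant message of the pair under treatment, by the implied means. The order per kilobase in control was AHR (544), CYP1B1 (516), ARNT (173) and CYP1A1 (23.5 normalized counts per kilobase). In shikonin it was AHR (273), CYP1B1 (247), ARNT (108) and CYP1A1 (43.7). The order was the same in both groups, and AHR and CYP1B1 were close neighbours in it.

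TIPARP (ENSG00000163659) encodes a mono-ADP-ribosyltransferase, also called PARP7, and lies on chromosome 3 from 156673235 to 156706770, plus strand. It was not listed, so it has no value here, and neither its level nor a change below the thresholds can be given. Its antisense neighbour TIPARP-AS1 was not listed either.

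**Figure D2:**
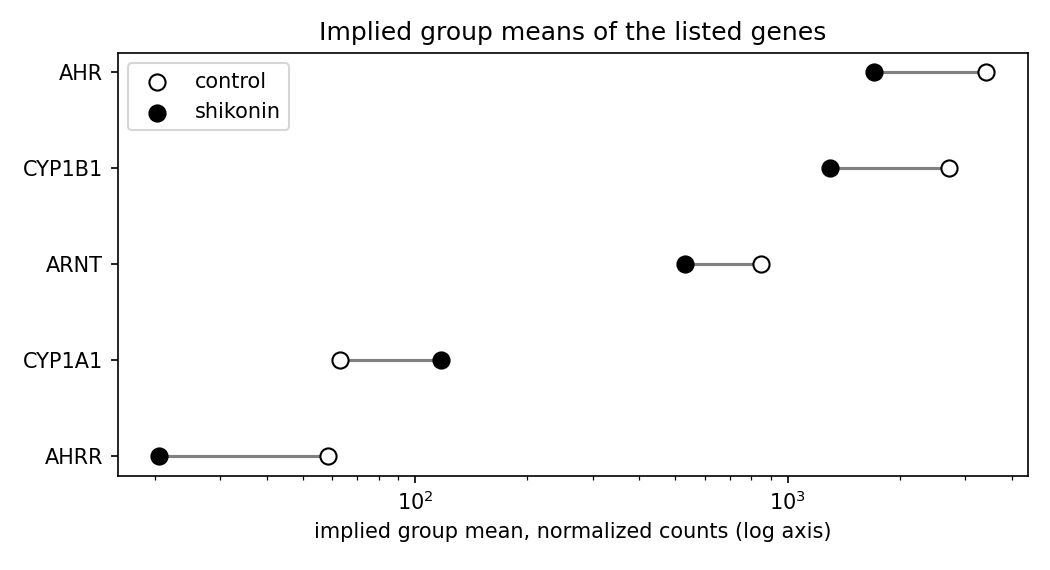
Implied group mean of each listed gene in normalized counts (log axis), control as open and shikonin as filled circles. AHR and CYP1B1 lie between 1297 and 3412, ARNT between 530 and 848, and CYP1A1 and AHRR between 20.6 and 117; CYP1A1 is the one gene whose filled circle lies to the right.

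Genes that supply or accompany the receptor are described by list, each count to be read against the 50.2% of all tested genes that were listed, 25.5% higher and 24.7% lower. The share of a list counts all its genes, tested or not, so it is not strictly comparable with shares of tested genes. The lists were not tested against each other or against other genes. Of the 6 genes of the cytoplasmic receptor complex 100% were listed, 6 higher and 0 lower, with a median log2 fold change of 1.16. With equal implied totals 4 of them stayed past 1.5-fold, beside 2391 of all 3630 higher genes. HSP90AB1, an HSP90 chaperone gene, stood in the authors' deposited table at 2.42-fold higher (2.08 to 2.82), and PTGES3, the gene of p23, was 2.33-fold higher (2.00 to 2.72). CDC37 and STUB1, a kinase co-chaperone and a chaperone-linked ubiquitin ligase, were higher by 1.58-fold and 1.54-fold. HSP90 genes have processed pseudogenes that can share their reads, so their single values are uncertain.

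Of 16 other bHLH-PAS genes, the family of AHR and ARNT, 6 (37.5%) were listed, beside 50.2% of all genes tested. Of the family 1 gene was higher and 5 (31.2%, beside 24.7% of all genes) were lower, and the listed ones had a median log2 fold change of -1.90. The coactivators NCOA2 and NCOA1, which bind AHR as well as many nuclear receptors, were in the authors' deposited table lower by 5.64-fold and 4.87-fold (3.85 to 6.15 for NCOA1), with standard errors of 0.25 and 0.17 on the log2 scale. On the log2 scale NCOA3 fell by 1.86, and the circadian factor gene CLOCK fell by 1.94. ARNTL2, which encodes another partner of CLOCK, was 1.99-fold lower, almost the fold of AHR. NPAS1 was the higher member, 1.88-fold (1.16 to 3.07), at a mean of 82.0 normalized counts. ARNT2, HIF1A and EPAS1, the latter pair being hypoxia factors that also use ARNT, were not listed.

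Of 14 genes of coactivators, corepressors and receptor turnover, 11 (78.6%) were listed, 0 higher and 11 lower, beside 24.7% lower among all genes tested. Their median log2 fold change was -1.48. EP300 and CREBBP, histone acetyltransferase genes, stood in the authors' deposited table at 4.43-fold (2.31 to 8.51) and 3.73-fold (2.77 to 5.01) below control. The Mediator subunit gene MED1 was 3.90-fold lower (2.83 to 5.37). The corepressor gene NCOR1 was lower, at a log2 fold change of -1.55. CUL4B, the cullin of a ligase that acts with the receptor, and RB1, a reported receptor partner, were at -0.68 and -0.64. At 2-fold or more, 6 of these 11 remained, beside 2087 of all 3520 lower genes.

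Of 21 other genes reported as AHR targets, 10 (47.6%) were listed, a share near the 50.2% of all genes tested. Of the 21, 9 (42.9%, beside 25.5% of all genes) were higher and 1 was lower, and the listed ones had a median log2 fold change of 1.15. NQO1, ALDH3A1, UGT1A1, UGT1A6 and NFE2L2, the drug-metabolism targets and the redox factor, were not listed. The listed ones were led by STC2, a secreted glycoprotein gene, and by the cytokine gene IL1B, which is also a target of NF-kB. IL1B was 4.23-fold higher by the authors' deposited table. STC2 was 6.37-fold higher with an interval of 2.28 to 17.8, from an implied control mean of 4.41 normalized counts. NEDD9, an adhesion scaffold gene, was 3.48-fold (2.72 to 4.45) and AREG, an EGF receptor ligand gene, 2.26-fold (1.86 to 2.73) higher. SERPINB2 and ABCG2, a drug efflux pump gene, were 2.00-fold (1.28 to 3.11) and 1.58-fold (1.06 to 2.36) higher. SLC7A5, whose transporter carries tryptophan and kynurenine, was the lower member, 2.53-fold (1.99 to 3.23). Many of these genes answer to other factors as well, so the list does not measure receptor activity.

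Of 12 genes of tryptophan breakdown, the route to the receptor ligand kynurenine and its products, 6 (50%) were listed, the share of all genes tested being 50.2%. The 6 were all higher, beside 25.5% higher among all genes, with a median log2 fold change of 1.23. IDO1, which opens the route, was 3.42-fold higher (1.90 to 6.15) from a low implied control mean of 27.5 normalized counts. KYAT1, a kynurenine aminotransferase gene, was placed by the authors' deposited table at 2.54-fold, AFMID at 2.16-fold (1.73 to 2.70) and KYNU, the kynureninase gene, at 2.07-fold (1.71 to 2.51) higher. QPRT, at a mean of 2.57 normalized counts and a standard error of 2.28, rests on few reads. TDO2 and IL4I1, which also start receptor ligands from tryptophan, were not listed. Of 12 genes that pass electrons to P450 enzymes or make their haem, 7 (58.3%) were listed, 7 higher and 0 lower, beside 25.5% higher among all genes, with a median log2 fold change of 1.08. With equal implied totals 4 of these stayed past 1.5-fold, and 4 were at least 2-fold higher. Of all 3630 higher genes, 2391 stayed past 1.5-fold with equal implied totals and 2341 were at least 2-fold higher. CYB5A, the cytochrome b5 gene, was 3.24-fold (2.49 to 4.22), UROD 2.72-fold (2.18 to 3.38) and ALAS1, which makes the first enzyme of haem synthesis, 1.66-fold (1.40 to 1.95) higher; ALAS1 was among those not past 1.5-fold with equal implied totals. POR, the main P450 reductase gene, was not listed.

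Of 15 other PARP family genes, the relatives of TIPARP, 6 (40%) were listed, 1 higher and 5 (33.3%, beside 24.7% of all genes) lower, and 9 were not listed. The median log2 fold change of the listed ones was -1.31. PARP14, another mono-ADP-ribosyltransferase gene, was placed by the authors' deposited table at 3.24-fold lower (2.51 to 4.19), and TNKS2, a tankyrase gene, was 2.81-fold lower (2.18 to 3.63). PARP11 was 1.64-fold lower (1.09 to 2.48), and PARP3 was the higher member, 2.04-fold (1.56 to 2.66). PARP1 was not listed.

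**Figure D3:**
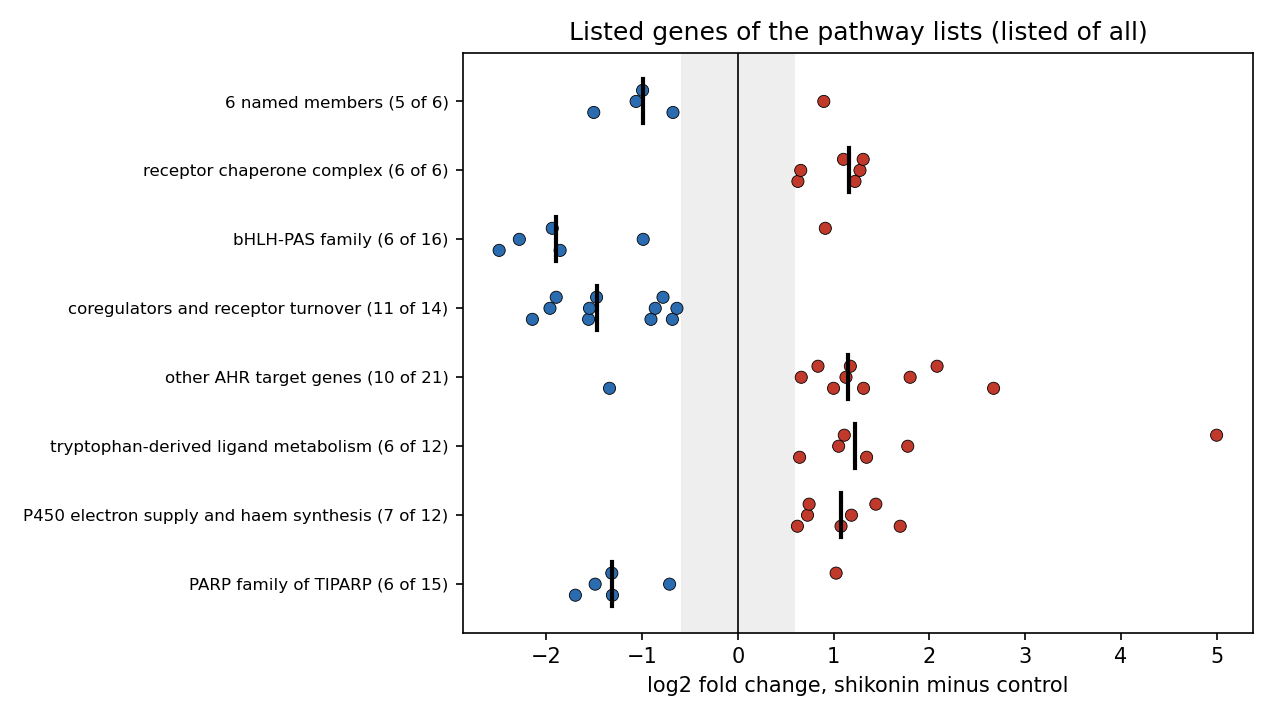
Log2 fold change of each listed gene in the 6 named members and 7 pathway lists; each point is 1 gene, black bars are medians, and the grey band is the range within 1.5-fold, where no gene can be listed. The receptor complex, ligand metabolism and P450 supply lists lie wholly to the right, and the coregulators wholly to the left.

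Transcript length moved with direction across this table. AHR has a mature transcript of 6276 nt. Listed protein-coding genes of 6064 to 7954 nt were higher in 6.36% of cases, with a median log2 fold change of -1.23, so AHR stood 0.24 above its length class. CYP1B1 (5250 nt) was within 0.03 of the median of its class, -1.03, in which 10.7% of genes were higher. ARNT (4887 nt) stood 0.17 above a class median of -0.85, with 18.2% higher. CYP1A1, the shortest at 2685 nt, fell in a class with 65.2% higher and a median of 0.75, and stood 0.15 above it. Each of the 4 genes thus had the sign of its class and lay within 0.24 of its median. The AHRR row has no length because its identifier is not in the annotation. Among the lists, the median mature length of listed members was 1843 nt for the receptor complex and 1740 nt for P450 supply, against 5979 nt for bHLH-PAS genes and 5844 nt for coregulators. The sign of a listed member was that of its length class for 5 of 6 genes of the receptor complex, 5 of 6 bHLH-PAS genes, 10 of 11 coregulators, 7 of 10 other targets, 5 of 6 tryptophan genes, 5 of 7 P450 supply genes and 6 of 6 PARP genes. Over all listed protein-coding genes, 97.3% of the shortest class and 4.62% of the longest were higher, with 65.2% and 33.1% in the middle classes. Having the sign of the class was thus common among all listed genes and is not particular to these lists. The part of length in these results was not tested.

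**Figure D4:**
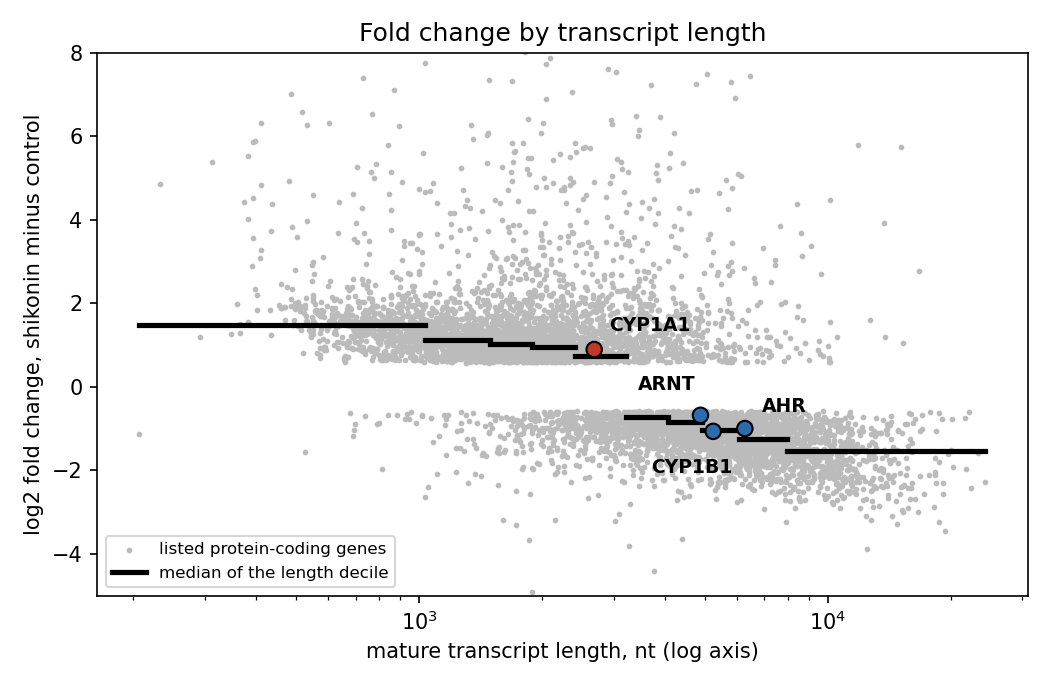
Log2 fold change against mature transcript length (log axis) for 6920 listed protein-coding genes (grey), with the median of each of 10 equal classes of genes by length (black bars) and the 4 members that have a length (coloured); 19 genes lie outside the vertical range. CYP1A1 sits by the bar of its class above 0, and ARNT, CYP1B1 and AHR sit by theirs below 0.

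With a single comparison, likeness between genes can only be nearness in fold change. Among listed genes whose mean was at most 25% above or 20% below its own, the nearest to AHR (443 candidates) were ATG2A, MINK1 and ADAM10, all within 0.0036 on the log2 scale. ARNT (980 candidates) was nearest to GALNT4, DMPK and TRAK2, and CYP1B1 (549) to TMEM33, IRF2BPL and FOXK2. CYP1A1 (311) was nearest to ARSL, PSG9 and MMP24, and AHRR (156) to CEP126, COBLL1 and ZBTB20. Such neighbours are many in a table of this size.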

How the data were processed

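Total RNA of 3 control and 3 shikonin samples was made into libraries with an NEBNext Ultra kit, per the labels' protocols. Reads were handled with fastp and HISAT2 2.0.5 on hg38 and tested with DESeq2, per the submitters' processing notes. No counter, annotation or strand setting is named there. The deposited table holds the authors' mean normalized signal over all libraries, their log2 fold change with its standard error, their Wald score, and their p-value with its adjusted p-value, per the file headers. No test of counts could be run, as the table has 0 columns of values per sample, so the authors' test stands.

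Computed from it (Python 3.11.15, pandas 2.3.3, numpy 2.4.6): 95% normal intervals, implied group means (from mean and fold, equal weight per library), and the number of genes tested, found as the number that makes p over adjusted p a whole rank for most genes (74.8% of 1641, tolerance 0.005; tested on simulated data). Lengths and positions are from GENCODE 29, matched by identifier for 7142 genes; length is that of the transcript with the longest coding sequence. Of the rows, 166 have no gene name. The members and the 7 pathway lists were chosen with earlier results of these data known. Named genes were all members, any listed gene of the lists with the largest changes first, and the 3 nearest genes in fold change per member, among genes of similar mean. Alternatives were other scalings and stricter thresholds. Both scalings, by implied totals and by median, used the listed genes alone. Not every gene of the lists is reported here by name.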

Additional observations from a re-analysis of the deposited data

How the results depend on the processing

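AHR and CYP1B1 kept their direction and stayed past 1.5-fold under each alternative run. The other scalings lowered every log2 value, so they could only move lower genes further from 0. For lower genes the scalings were therefore no check, unlike the rule on the 95% interval. With equal implied totals over listed genes (every log2 value lowered by 0.39) CYP1A1 stood at 0.50. With the median of the listed genes set to 0 (lowered by 0.60) it stood at 0.30. Both values lie inside 1.5-fold. That median lies just past the 1.5-fold threshold, 0.585 on the log2 scale, within which no gene can be listed. It is therefore a weak basis for scaling. The same shifts took ARNT to -1.07 and -1.28 and AHRR to -1.90 and -2.11. Asking that the 95% interval lie wholly beyond 1.5-fold removed ARNT (-0.68), AHRR (-1.51) and CYP1A1 (0.90), whose nearer bounds were 1.27-fold, 1.28-fold and 1.18-fold. Of the 96 genes in the pathway lists, 30 (31.2%) were higher and 22 (22.9%) lower, beside 25.5% and 24.7% of all genes tested. At 2-fold these were 20 and 15 of the 96, beside 2341 and 2087 of the 14252 genes tested. With equal implied totals they were 21 and 22 of the 96, beside 2391 and 3520 of the 14252. Unlisted genes that would enter under another scaling are not held. No paired analysis was possible because the table has no values per sample, and leaving out each replicate was not run for the same reason. The depth of the libraries is unknown, and the low means of CYP1A1 and AHRR limit the precision of their folds.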
